A study of Mus musculus with 30 samples.

Results

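The comparison set the 12 mouse brains labelled cohort 2 against the 18 labelled cohort 1, which together were all 30 samples of the series, and members were chosen by the cohort label alone. Every mouse was 8 months old and came from a line with a disrupted Tmem106b gene. WT mice carried both intact copies of the gene, HET mice carried 1 and KO mice carried 0. Each genotype held 6 mice of cohort 1 (3 females and 3 males) and 4 mice of cohort 2 (2 females and 2 males), so genotype and sex were balanced between the cohorts. Total RNA came from the cerebral hemispheres and was extracted from all 30 brains in a single experiment, and each sample is a separate mouse. The sources used here do not say what a cohort is, nor the strain, the means of killing or the hour. The question was which cell types, brain regions and pathways differed between the cohorts, and whether they did so within each genotype.

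As background, RNA from whole brain tissue mixes neurons, astrocytes, oligodendrocytes, microglia and the cells of blood vessels, so that a transcript can differ because a cell type is more abundant or because each cell holds more of it. Immediate early genes are transcribed within minutes of neuronal activity or handling, glucocorticoid-induced genes follow the level of the stress hormone corticosterone, and clock genes follow the time of day. The protein made from Tmem106b sits in the membranes of late endosomes and lysosomes. All levels are log2 RPKM (reads scaled to transcript length and library total) after conditional quantile normalization by the authors, and a difference is the level in cohort 2 minus that in cohort 1 on this log2 scale.

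The labels were first checked against the genes that they name. Tmem106b lay between 9.06 and 9.27 in the WT mice, between 8.54 and 8.62 in the HET mice and between 7.43 and 7.67 in the KO mice, and it did not pass the test between cohorts (difference -0.05 ± 0.02 (SE), adjusted p = 0.142 by limma). Xist, the X-inactivation RNA, was between 8.7 and 9.39 in the 15 females and at most 0.89 in the 15 males. The RNA integrity number was 9.39 ± 0.24 (SD, n = 18) in cohort 1 and 9.22 ± 0.46 (SD, n = 12) in cohort 2. By two-sided permutation tests, the difference in means did not pass (p = 0.201), nor did that in medians (-0.25, p = 0.0548). A pair of KO mice of cohort 2 stood apart. The male with replicate number 1 had a mean of 8.02 over the 7 pituitary genes tested, against 5.17 or less in cohort 1, and the female with replicate number 7 had a mean of 9.04 over the 8 red blood cell genes, against 7.07 or less in cohort 1. Counts that rest on these mice are therefore given with and without them, an alternative chosen after these values were seen. Purkinje cell gene Pcp2 lay between 8.02 and 8.71 in all 30 mice, so a cerebellar marker was present in samples labelled as cerebral hemispheres. Pcp2 itself did not pass between cohorts (difference 0.05 ± 0.05 (SE), limma adjusted p = 0.472). Of 19 cerebellar genes tested 0 passed, but 3 had a difference above 0, and their median was -0.091 (-0.084, -0.081 and -0.079 in WT, HET and KO mice).

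Of 23695 genes tested with genotype, sex and RNA integrity number in the model, 4150 (17.5%) passed an adjusted p of 0.05 between the cohorts by limma. Of these, 1917 (8.09%) were higher in cohort 2 and 2233 (9.42%) were lower. The differences were mostly small, with a median size of 0.135 among the called genes, and 358 of them were over 0.5. Over all genes tested the median difference was 0.006. After the KO mice that stood apart were left out, 2585 genes passed, and 96.2% of these were among the 4150. With plate column, the numeral of the well in each sample's title, as a further factor, 3282 genes passed, and 97.3% of these were among the 4150. A separate fit of the 15 females gave 100 genes and one of the 15 males 1429.

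The gene with the lowest adjusted p was Kif3a (chr11:53567379-53601967, plus strand, mm10), a motor subunit of kinesin-2, which carries cargo along microtubules in axons and cilia. Its level ran from 8.7 to 8.88 (median 8.76) in cohort 1 and from 8.52 to 8.64 (median 8.56) in cohort 2. All 12 cohort 2 brains lay below all 18 cohort 1 brains, and Kif3a fell by 0.20 ± 0.02 (SE, limma adjusted p = 5.97e-08). Within genotypes Kif3a fell by 0.21 (WT), 0.22 (HET) and 0.19 (KO), and each fall passed (limma adjusted p = 0.00601, 0.00327 and 0.0023). Separation of this kind was rare. In 8 of the 23695 genes (0.0338%) every cohort 2 value lay below every cohort 1 value, and in 0 genes (0%) above. The other seven were Dnm1l, the GTPase that divides mitochondria, Dmxl2, a partner of the vacuolar ATPase, the methionyl-tRNA synthetase gene Mars, Uba1, the enzyme that activates ubiquitin, and the rows Gm10382, Gm26566 and Gm11646.

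**Figure D1:**
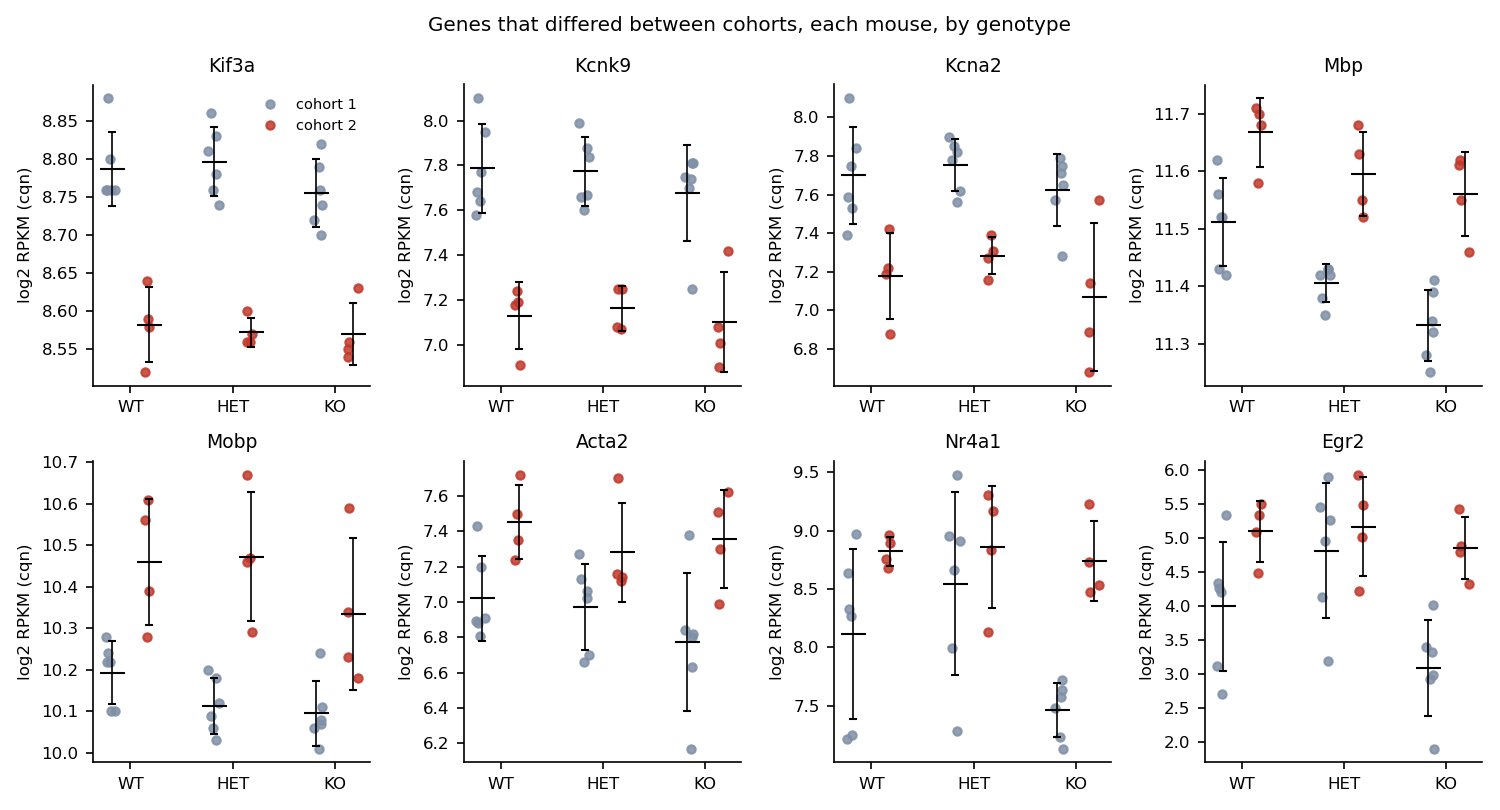
Each point is the log2 RPKM of 1 mouse, by genotype and cohort, with the mean and SD in black; the y axes do not start at 0. Kif3a, Kcnk9 and Kcna2 lay lower in cohort 2 and Mbp, Mobp and Acta2 higher in each genotype, while the rises of Nr4a1 and Egr2 were 1.25 and 1.70 in KO mice and the HET differences 0.25 and 0.22.

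Some ion channel genes of neurons were among the falls. Kcnk9 (chr15:72512119-72546279, minus strand, mm10), which encodes a two-pore potassium leak channel, ran from 7.25 to 8.1 (median 7.74) in cohort 1 and from 6.9 to 7.42 (median 7.13) in cohort 2. Of the 12 cohort 2 brains, 9 were below all of cohort 1, and Kcnk9 fell by 0.62 ± 0.07 (SE, limma adjusted p = 4.16e-06), with falls of 0.66, 0.62 and 0.57 in WT, HET and KO mice. Kcna2, a delayed-rectifier channel of axons, ran from 7.28 to 8.1 (median 7.73) in cohort 1 and from 6.68 to 7.57 (median 7.2) in cohort 2. It fell by 0.51 ± 0.07 (SE, limma adjusted p = 1.25e-05), and 8 of 12 cohort 2 brains were below all of cohort 1. Of 37 voltage-gated potassium channel genes tested, 10 fell, 0 rose and 27 did not pass, and their median difference was -0.028. Kcna3 was a further member that fell, by 0.42. Of 25 calcium channel subunit genes 5 fell and 0 rose, and of 10 sodium channel subunit genes 1 fell and 0 rose, near the 9.42% of all genes that were lower. The potassium channel family and those that follow were picked after the differences had been seen and are described by counts only.

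In several receptor, cytoskeletal and transport families more genes fell than rose, against 9.42% lower and 8.09% higher over all genes. These shares varied with mean level. Of 5 bins of all genes by level, the lowest had 1.48% lower and 3.04% higher, and the highest 17.4% lower and 13.7% higher. The families and lists described here were not matched for level. Of 15 GABA-A receptor subunit genes, 4 fell and 0 rose (among them Gabrb1 by 0.34 ± 0.05 (SE), Gabra2 and Gabrb2), with a median of -0.049. Of 25 glutamate receptor genes, 4 fell and 0 rose (Gria1, Gria2, Grin2a and Grin2b, subunits of AMPA and NMDA receptors), with a median of -0.036. Of 32 kinesins 6 fell and 1 rose, and of 16 dynein subunits 5 fell and 2 rose (2 and 1 without the KO mice that stood apart). Of 14 tubulins 4 fell and 0 rose, and of 12 spectrins, ankyrins and adducins, which form the lattice under the membrane, 6 fell and 0 rose. In the last group Add2 ran from 8.06 to 8.43 in cohort 1 and from 7.66 to 8.13 in cohort 2, and fell by 0.35 ± 0.04 (SE, limma adjusted p = 9.31e-06). Of 24 importins, exportins and transportins, which carry proteins and RNA through nuclear pores, 11 fell and 0 rose, among them Ipo7 (by 0.22) and Xpo5 (by 0.19). Of 18 cytosolic aminoacyl-tRNA synthetases 7 fell and 0 rose. Of 30 Vps genes, most of which encode endosomal sorting proteins, 10 fell and 2 rose, with Vps35 of the retromer down by 0.13. The counts of falls without the KO mice that stood apart were 6 for the importin family, 3 for the spectrin family (as without the male alone) and 8 for the potassium channels. Without the WT mouse with replicate number 6 of cohort 2, 7 glutamate receptor genes fell.

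The neuronal markers moved little. Of 14 general neuronal genes 4 fell (Map2, Tubb3, Syt1 and Eno2), 1 rose (Thy1) and 9 did not pass, with a median of -0.033. Of 13 excitatory neuron genes 4 fell (Grin2b, Sv2b, Nptx1 and Baiap2) and 0 rose, and of 14 inhibitory neuron genes 3 fell (Slc32a1, Gad2 and Gad1) and 0 rose. The excitatory count without the KO mice that stood apart was 2 (also 2 without the male alone) and the inhibitory count 1. The latter was also 1 without the WT mouse with replicate number 9 of cohort 2, and with plate column in the model 1 excitatory gene fell. The nuclear neuronal marker Rbfox3 had a difference of -0.03 ± 0.02 (SE, limma adjusted p = 0.298). In bulk tissue, fewer cells of a type and less RNA per cell cannot be told apart, which holds for every cell type named here.

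Oligodendrocyte and vascular genes leaned upward. Mbp, which encodes myelin basic protein, ran from 11.25 to 11.62 (median 11.42) in cohort 1 and from 11.46 to 11.71 (median 11.61) in cohort 2. It rose by 0.19 ± 0.02 (SE, limma adjusted p = 9.69e-06), with rises of 0.16, 0.18 and 0.23 in WT, HET and KO mice, the second with a limma adjusted p of 0.0504. Mobp, another protein of compact myelin, ran from 10.01 to 10.28 in cohort 1 and from 10.18 to 10.67 in cohort 2, where 10 of 12 brains exceeded all of cohort 1. It rose by 0.28 ± 0.04 (SE, limma adjusted p = 2.99e-05) and passed within each genotype. Of 18 myelin protein genes, 6 rose (also Mog, Pllp, Gjb1 and Mag), 0 fell and 12 did not pass, with a median of 0.061, and of 24 other genes of mature oligodendrocytes 3 rose (Ndrg1, Qdpr and Ppp1r14a) and 0 fell, a share near the 8.09% of all genes that were higher. Of 9 genes of oligodendrocyte precursors 1 fell, the matrix protein Tnr (by 0.19 ± 0.03 (SE)), and Pdgfra, which defines these cells, did not pass (-0.07 ± 0.03 (SE), limma adjusted p = 0.108).

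Of 12 genes of mural cells, the pericytes and smooth muscle cells around vessels, 8 rose, 0 fell and 4 did not pass, with a median of 0.153. Within WT, HET and KO mice the median was 0.115, 0.123 and 0.211. There 0, 0 and 3 of the 12 genes rose, against 1.12%, 0.0844% and 1.89% of all genes. Acta2, smooth muscle actin, ran from 6.17 to 7.43 (median 6.88) in cohort 1 and from 6.99 to 7.72 (median 7.33) in cohort 2 and rose by 0.40 ± 0.10 (SE, limma adjusted p = 0.00472). The contractile genes Myh11 and Tagln rose by 0.33 and 0.31, and the pericyte genes Rgs5, Higd1b and Kcnj8 by 0.12, 0.24 and 0.18. The mean level over the list ran from 5.67 to 5.97 in cohort 1 and from 5.85 to 6.1 in cohort 2, and 7 of the 12 genes rose without the KO mice that stood apart, when Higd1b did not pass. Of 15 endothelial genes 6 rose (Ly6c1, Vwf, Flt1, Ly6a, Pecam1 and Esam) and 0 fell, with a median of 0.083. Within WT, HET and KO mice 0, 0 and 3 of the 15 rose. Without the KO mice that stood apart 4 of the 15 rose over all genotypes, when Pecam1 and Esam did not pass. Cldn5, which defines endothelial cells, was not among the 6, and its difference was -0.32 in WT and 0.58 in KO mice. Vwf, the clotting factor stored in endothelium, ran from 3.86 to 4.45 in cohort 1 and from 4.19 to 5.02 in cohort 2 and rose by 0.33 ± 0.07 (SE, limma adjusted p = 0.00181). The mean over the 8 red blood cell genes ran from 6.14 to 7.07 in cohort 1 and from 6.24 to 9.04 in cohort 2, 0 of these genes passed, and their part in the vascular differences was not tested.

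Most other glial, border and regional lists gave few calls. Of 17 astrocyte genes 1 rose (Ntsr2) and 1 fell (the glutamate transporter Slc1a2, by 0.11 ± 0.02 (SE)), and of 20 microglial genes 0 rose and 1 fell (P2ry13). Of 11 genes of reactive astrocytes 3 rose and 0 fell, with a median of 0.082. They were Timp1, an inhibitor of matrix proteases (by 0.58 ± 0.16 (SE)), the hyaluronan receptor Cd44 and the lipid receptor S1pr3. The mean of that list ran from 4.73 to 5.15 (median 4.95) in cohort 1 and from 4.95 to 5.39 (median 5.11) in cohort 2. In cohorts 1 and 2 it was 5.06 ± 0.06 (SD, n = 6) and 5.05 ± 0.08 (SD, n = 4) in WT mice. HET mice had 4.88 ± 0.11 (SD, n = 6) and 5.10 ± 0.20 (SD, n = 4), and KO mice 4.88 ± 0.03 (SD, n = 6) and 5.23 ± 0.09 (SD, n = 4). The tests of the KO or HET difference against the WT difference passed for 0 of the 11 genes. Gfap, the defining filament gene, did not pass (0.06 ± 0.04 (SE), limma adjusted p = 0.312), and Timp1 lost its call without the KO mice that stood apart (limma adjusted p = 0.0542). Cd44 also lost its call without those mice, with plate column in the model and in 11 of 30 fits that left out 1 mouse each. The highest limma adjusted p of Cd44 over all settings was 0.173. The lists for choroid plexus (19 genes), ependyma (13) and meningeal and vascular fibroblasts (15) gave 0 calls. Among regions, 0 of 18 striatal genes, 0 of 19 cerebellar genes and 0 of 14 midbrain dopaminergic genes passed. The difference was above 0 for 16 of the striatal genes (median 0.069) and 12 of the dopaminergic genes (median 0.064), but for 9 and 7 within KO mice. Fits that left out 1 mouse gave 0 to 4 falls among the cerebellar genes. Of 19 hippocampal genes 3 fell and 1 rose, of 24 hypothalamic genes 2 fell (0 without the KO mice that stood apart), and of 20 thalamic and habenular genes 2 rose and 1 fell. The regional genes with the lowest adjusted p were Lef1, a thalamic transcription factor, which rose by 0.32 (from a cohort 1 range of 3.3 to 3.89 to a cohort 2 range of 3.85 to 4.16), Rorb of cortical layer 4, which rose by 0.17, and Etv1 of layer 5, which fell by 0.16. 

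**Figure D2:**
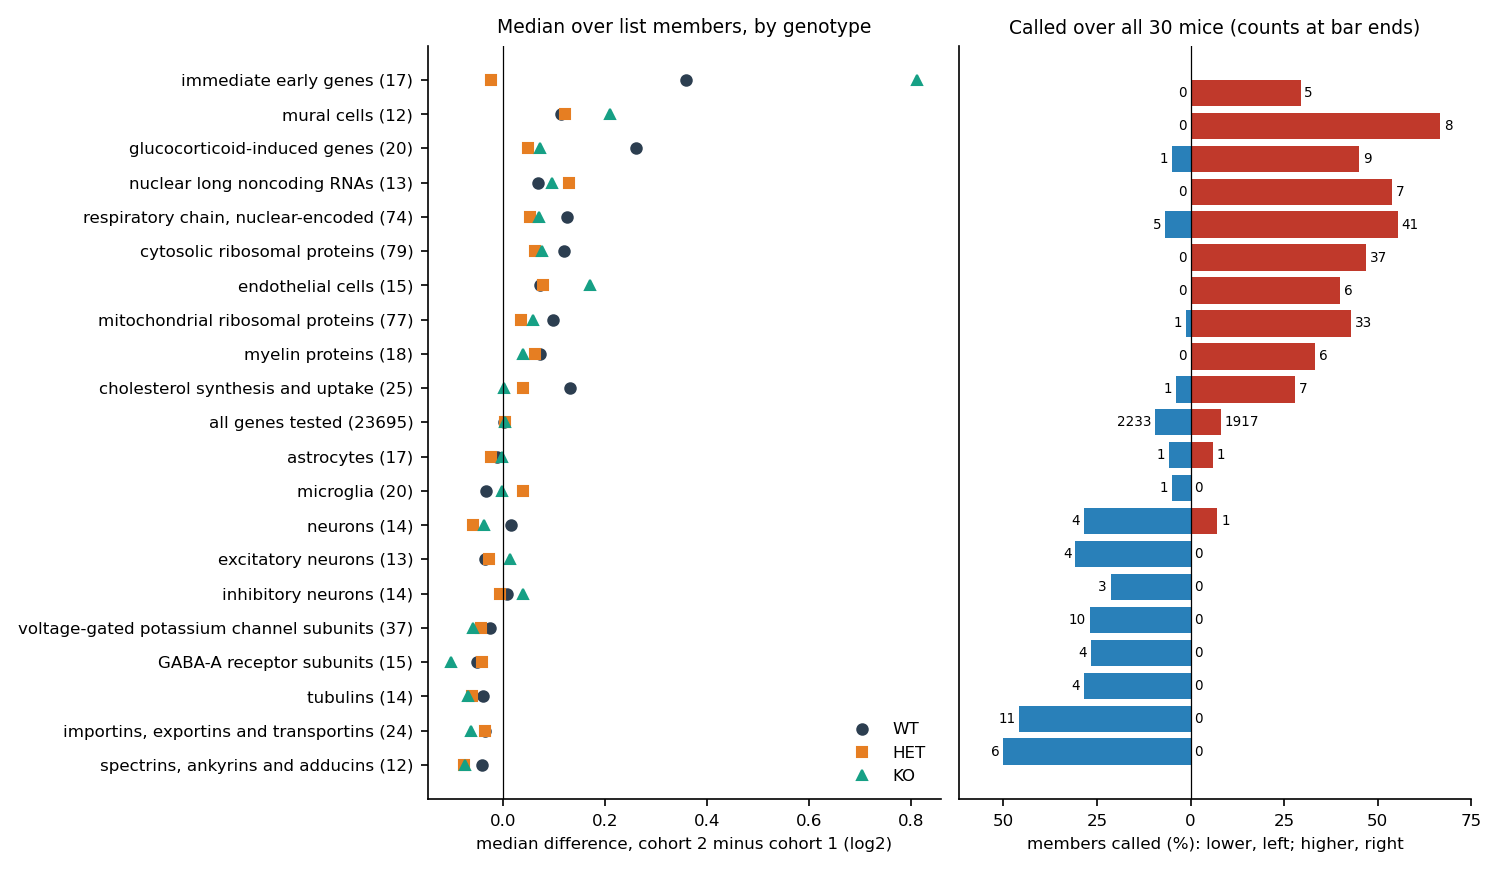
The left panel gives the median difference over each list's members (number tested in brackets) in WT, HET and KO mice, and the right panel the percentage of members called lower (left) or higher (right) over all 30 mice, with counts at the bar ends. Mural, respiratory and ribosomal genes lay to the right in each genotype, and the neuronal, transport and membrane skeleton families had calls mostly or wholly to the left.

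Many ribosomal protein and respiratory chain genes rose. Of 79 cytosolic ribosomal protein genes, 37 rose, 0 fell and 42 did not pass, with a median of 0.083. Within WT, HET and KO mice 2, 0 and 1 of them passed, all as rises, with medians of 0.121, 0.063 and 0.077. Rps29 ran from 10.95 to 11.28 (median 11.07) in cohort 1 and from 11.11 to 11.41 (median 11.25) in cohort 2 and rose by 0.18 ± 0.03 (SE, limma adjusted p = 0.000502). Without the KO mice that stood apart 13 ribosomal protein genes rose and 0 fell, and without the male alone 16 rose. Without the KO mouse with replicate number 12 of cohort 2, 57 rose, and without the RNA integrity term 19 rose. The list mean also differed by plate column. It was highest in column 1 in both cohorts (9.679 in cohort 1 and 9.809 in cohort 2, against 9.538 to 9.593 and 9.597 to 9.639 in the other columns), and with plate column in the model 36 of the genes rose. Of 77 mitochondrial ribosomal protein genes 33 rose and 1 fell (18 and 0 without the male KO mouse). Initiation factor genes were mixed, beside the tRNA synthetases that fell. Of 54 initiation factor genes 7 rose (13%) and 10 fell (18.5%), with a median of 0.009. These counts were 3 and 5 without the KO mice that stood apart. Without the KO mouse with replicate number 12 of cohort 2 they were 11 and 10.

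Of 74 nuclear-encoded genes of the respiratory chain and ATP synthase, 41 rose, 5 fell and 28 did not pass, with a median of 0.085. Ndufa5, an accessory subunit of complex I, ran from 9.3 to 9.53 (median 9.39) in cohort 1 and from 9.49 to 9.67 (median 9.58) in cohort 2, where 10 of 12 brains exceeded all of cohort 1. It rose by 0.18 ± 0.03 (SE, limma adjusted p = 3.91e-05). Without the KO mice that stood apart 27 genes of this list rose and 3 fell, and without the RNA integrity term 26 rose and 8 fell. Among the 5 genes that fell were Sdha, the flavoprotein of complex II (by 0.099), Atp5a1 and Atp5b, the alpha and beta subunits of ATP synthase, and Ndufv1 of complex I. The annotated lengths of the 5 were 2313 to 4237 bases, with a median of 3135, against a median of 1214 for the 41 genes that rose. For the cytosolic ribosomal proteins the order was the opposite, with a median length of 1659 bases for the 37 that rose and 1206 for the 42 not called. Of the 18 genes of the vacuolar ATPase, the proton pump of lysosomes, 4 fell (Atp6v0a1, Atp6v0a2, Atp6v1a and Atp6v1c1; median length 4531.5 bases) and 4 rose (Atp6v0b, Atp6v0e2, Atp6v1f and Atp6v1g1; median length 1483.5 bases). Of 31 proteasome genes 0 rose and 1 fell.

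**Figure D3:**
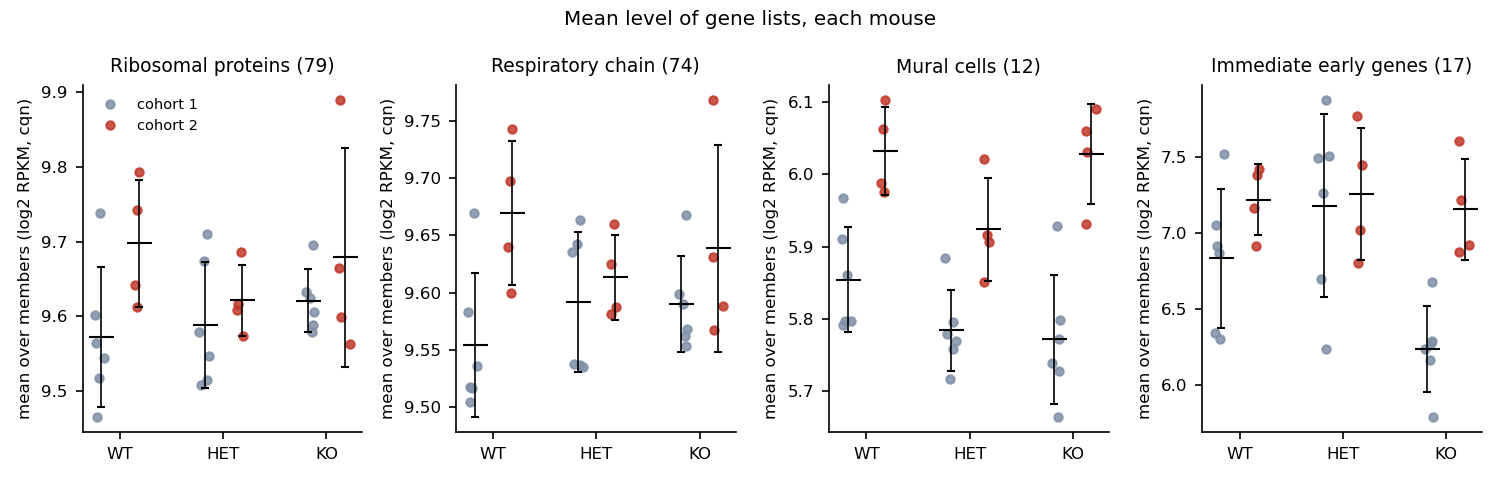
Each point is 1 mouse's mean log2 RPKM over the members of a list, by genotype and cohort, with the mean and SD in black; the y axes do not start at 0. The mural means of cohort 2 ran from 5.85 to 6.1 against 5.67 to 5.97 in cohort 1, the ribosomal and respiratory groups overlapped, and for immediate early genes the KO mice of cohort 1 were the low group.

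Among protein-coding genes as a whole the calls also varied with length. They were sorted by annotated length into 10 bins of equal size. In the shortest bin (24 to 1350 bases, 1603 genes), 15% were higher and 3.68% lower, with a median difference of 0.059, and the median was 0.065, 0.044 and 0.054 in WT, HET and KO mice. In bin 6, from 3637 to 4314 bases, 5.93% were higher and 12.2% lower, with a median of -0.007, and in the longest bin 11.9% were higher and 11% lower. The mean level of the shortest bin minus that of bin 6 ran from -0.808 to -0.686 (median -0.76) in cohort 1 and from -0.763 to -0.679 (median -0.708) in cohort 2, so the groups overlapped. It also varied along the plate. In cohort 1 its mean was -0.715 in plate column 1 and -0.788 in column 4, and in cohort 2 it was -0.707 and -0.722. The authors' normalization was made to remove trends with length within each library. The part of plate position in the difference between cohorts was not tested beyond the fit with plate column.

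Noncoding rows inside very long genes were another group among the rises. The windows of 5 Mb were ranked by their share of called genes, and the first of 489 was chr1:25-30 Mb, where 14 of 27 rows rose and 0 fell. All 14 were noncoding rows awaiting classification in GENCODE (biotype TEC) within Bai3 (chr1:25067476-25829707, minus strand, mm10), an adhesion receptor gene of synapses, and on its strand. Bai3 itself, counted over its exons of 18559 bases, was not called (6.44 to 6.69 in cohort 1, 6.41 to 6.66 in cohort 2; difference 0.04 ± 0.02 (SE), limma adjusted p = 0.264). The row RP23-478K4.3 (chr1:25722038-25724778) ran from 0.81 to 2.45 (median 1.56) in cohort 1 and from 1.93 to 3.57 (median 2.7) in cohort 2. It rose by 1.19 ± 0.17 (SE, limma adjusted p = 2.82e-05), and 11 of 12 cohort 2 brains exceeded all of cohort 1. In Frmd4a (chr2:4017717-4614043), a scaffold protein gene, all 7 such rows rose, with a median of 0.96, and the gene itself rose by 0.18 ± 0.03 (SE). One of them, RP23-74F20.2, had the lowest adjusted p of any gene that rose (6.69e-06 by limma), with a difference of 1.32 ± 0.15 (SE).

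Counted over the genome, with bins chosen after the Bai3 rows were seen, the share of such rows that rose was higher in coding genes over 200 kb than in shorter ones. Of 155 noncoding rows lying within a coding gene of over 500 kb and on its strand, 39 (25.2%) rose and 2 (1.29%) fell, with a median of 0.292, and the median was 0.237, 0.351 and 0.283 in WT, HET and KO mice. Of these, 27 rows and 21 of the rises lay in Bai3 and Frmd4a, the genes described above. Among the other 128 rows 18 (14.1%) rose and 2 (1.56%) fell, with a median of 0.176, so the share over 500 kb rests in large part on those genes. Of 176 rows in coding genes of 200 to 500 kb, 17.6% rose and 6.25% fell. In the bins below 200 kb the share that rose was 4.57% to 7.18%, and of 678 rows in coding genes under 50 kb, 4.57% rose and 5.46% fell. Rows on the other strand of genes over 500 kb rose in 11.4% and fell in 14.1%. The coding genes over 500 kb themselves went the other way, with 4.9% higher and 19.6% lower of 204. Of the 39 rows that rose, 30 lay in a gene that was not called, a share like that of all the rows (120 of 155). Averaged over the 155 rows, the level ran from 1.17 to 1.62 (median 1.4) in cohort 1 and from 1.58 to 2.19 (median 1.77) in cohort 2. Over the 128 rows outside Bai3 and Frmd4a it ran from 1.29 to 1.68 (median 1.51) and from 1.52 to 2.07 (median 1.74). The overlap was wider there, with 7 of 12 cohort 2 brains above all of cohort 1. GENCODE classes antisense rows separately, and of 1452 of them 3.37% rose and 18.2% fell, with a median of -0.073. No source used here says whether reads were counted by strand, so reads of a gene and of a row that overlaps it cannot be told apart.

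**Figure D4:**
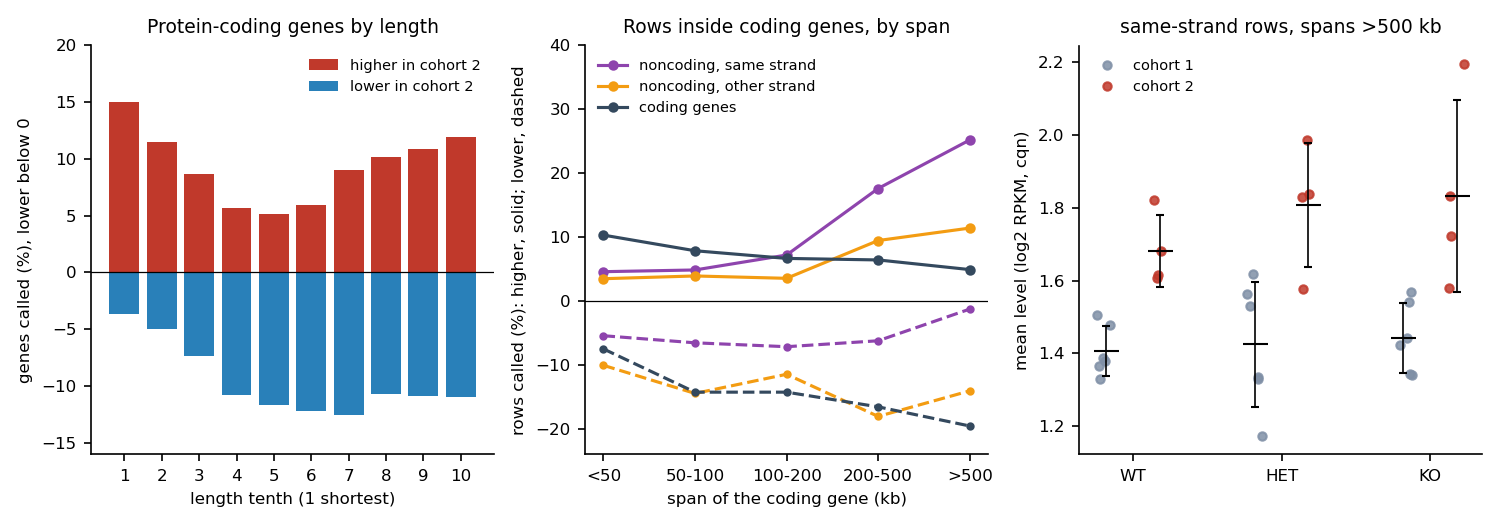
The left panel gives the percentage of protein-coding genes called higher (above 0) or lower (below 0) in each length bin, the middle panel the same for noncoding rows inside coding genes and for the coding genes, by span, and the right panel each mouse's mean level over 155 same-strand rows in genes over 500 kb, with mean and SD. The share of same-strand rows called higher was 4.57% under 50 kb, 17.6% from 200 to 500 kb and 25.2% over 500 kb (14.1% without Bai3 and Frmd4a, which are in the right panel too), and the cohort 2 mice ran from 1.58 to 2.19 against 1.17 to 1.62.

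RNAs that stay in the nucleus were also among the rises. Of 13 nuclear long noncoding RNAs, 7 rose and 0 fell, with a median of 0.103. They included Neat1, the scaffold of paraspeckles, which ran from 6.52 to 7.38 in cohort 1 and from 6.99 to 7.69 in cohort 2 (rise of 0.32 ± 0.09 (SE), limma adjusted p = 0.0143), and Kcnq1ot1, the imprinted antisense RNA, which rose by 0.39. Without the KO mice that stood apart 3 of the 13 rose, as without the male alone, and Neat1 did not pass in either case. A count of 4 was found with plate column in the model or without the WT mouse with replicate number 3 of cohort 2. In a separate list of 17 histone genes, 4 rose and 0 fell. Of the histone genes called, Hist1h2bc and Hist1h1c lost their call without the KO mice that stood apart. Hist1h4i lost its call in 14 of 30 fits that left out 1 mouse each.

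Immediate early genes had the largest median of the lists with calls, 0.417 over 17 genes, of which 5 rose (Fosl2, Nr4a3, Nr4a1, Egr2 and Egr1, all encoding transcription factors), 0 fell and 12 did not pass. Nr4a1 ran from 7.13 to 9.48 (median 7.86) in cohort 1 and from 8.13 to 9.31 (median 8.79) in cohort 2, and Egr2 from 1.9 to 5.89 (median 4.07) and from 4.22 to 5.93 (median 5.05). The groups overlapped widely, and the rises were 0.75 ± 0.21 (SE, limma adjusted p = 0.0122) and 1.03 ± 0.29 (SE, limma adjusted p = 0.0126). Within genotypes the median over the list was 0.36 (WT), -0.023 (HET) and 0.813 (KO), and the list mean of the KO mice of cohort 1 was 6.242 ± 0.282 (SD, n = 6), below the 6.833 to 7.257 of the other 5 groups of genotype and cohort. Within KO mice 8 of the 17 genes rose, against 1.89% of all genes tested, but the test of the KO against the WT difference passed for 0 of the 17. Without the KO mice that stood apart 2 of the 17 genes rose (also 2 without the male alone, Fosl2 and Nr4a3), whereas 8 rose without the RNA integrity term. Leaving out the HET mice with replicate numbers 9 or 18 of cohort 1 gave 8 and 10. Among later activity genes, Bdnf, which encodes a neurotrophin, rose by 0.22 ± 0.06 (SE, limma adjusted p = 0.00769).

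The rows of Mir132 and Mir212, microRNAs made from 1 activity-regulated precursor, were named after their values were seen. Mir132 (chr11:75173665-75173765) ran from 3.03 to 6.49 (median 4.89) in cohort 1 and from 5.14 to 6.44 (median 6.01) in cohort 2 and rose by 0.83 ± 0.24 (SE, limma adjusted p = 0.0162). Mir212 rose by 0.80 ± 0.23 (SE, limma adjusted p = 0.0174). Both lost their call without the KO mice that stood apart, Mir132 also without the male alone, and the highest limma adjusted p over all settings was 0.117 and 0.0566. As for the immediate early genes the difference in HET mice was small (-0.10 and 0.09), and these rows count precursor reads from a library of long RNA. The mature 3′ strands share the seed, bases 2 to 8, shown in capitals to make the shared seed visible (RefSeq, GRCm38.p6).
mmu-miR-132-3p: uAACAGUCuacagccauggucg
mmu-miR-212-3p: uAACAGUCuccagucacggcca

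The promoters of the immediate early genes were read for the cAMP response element, which binds CREB, since the list had 5 called members. Of 17 genes, 12 had a RefSeq window from 250 bases before to 50 after the start, and its core TGACG stood on either strand in 10 of them (83.3%), against 28.8% of 13110 windows of tested genes. The full palindromic element, which contains the core on both strands, stood in 16.7% against 2.92%. Among the called genes Nr4a3 and Nr4a1 held 4 cores each, and the windows of Fosl2 and Egr2 read here held 0. The core thus stood in 50% of the 4 called genes with a window, and in every such gene that was not called. The full element stood in 0% of the called genes, and its holders, Dusp1 and Btg2, were not called. Among the 12 genes with a window, the motif was therefore not particular to those that rose. Egr2 had 5 windows, of which the first listed was read, so its other windows could hold a core. The windows of Nr4a3 and Nr4a1 are shown with each core in capitals on the strand printed (TGACG, or CGTCA where it lies on the other strand). They are chr4:48045055-48045354 and chr15:101266596-101266895, both on the plus strand of GRCm38.p6. A match is a description of the sequence only.
Nr4a3: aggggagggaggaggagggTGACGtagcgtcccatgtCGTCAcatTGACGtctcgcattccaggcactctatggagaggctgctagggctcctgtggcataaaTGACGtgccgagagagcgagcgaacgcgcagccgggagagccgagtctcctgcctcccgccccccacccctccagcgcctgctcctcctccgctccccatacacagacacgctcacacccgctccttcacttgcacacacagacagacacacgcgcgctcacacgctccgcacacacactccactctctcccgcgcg
Nr4a1: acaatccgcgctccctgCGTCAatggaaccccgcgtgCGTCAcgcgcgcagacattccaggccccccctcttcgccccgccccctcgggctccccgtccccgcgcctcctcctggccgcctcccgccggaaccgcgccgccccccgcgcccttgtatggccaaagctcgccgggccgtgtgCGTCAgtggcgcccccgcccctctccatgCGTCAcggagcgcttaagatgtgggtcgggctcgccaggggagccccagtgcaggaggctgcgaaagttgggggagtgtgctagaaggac

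Hormone, clock and stress lists were mixed. Of 20 glucocorticoid-induced genes 9 rose and 1 fell (Zbtb16), with a median of 0.126. The metallothionein gene Mt2 ran from 9.74 to 10.85 (median 10.3) in cohort 1 and from 10.3 to 10.81 (median 10.5) in cohort 2 and rose by 0.26 ± 0.07 (SE, limma adjusted p = 0.017), with differences of 0.54, 0.22 and -0.01 in WT, HET and KO mice. The median over this list was 0.261, 0.049 and 0.074. The tests of the KO or HET difference against the WT difference passed for 0 of the 20 genes. Without the WT mouse with replicate number 6 of cohort 2, 3 of these genes rose, and without the HET mouse with replicate number 10, 5 rose. Of 21 clock genes 3 rose (Rorb, Nfil3 and Per1) and 3 fell (Clock, Cry1 and Wee1), against 1 and 2 without the KO mice that stood apart or without the male alone. Of 17 heat shock genes 3 rose and 5 fell, among them Hspa8, the constitutive Hsc70 chaperone, which ran from 10.34 to 10.82 in cohort 1 and from 10.1 to 10.45 in cohort 2 and fell by 0.26 ± 0.04 (SE, limma adjusted p = 0.000106). Of 25 genes of cholesterol synthesis and uptake 7 rose and 1 fell (Srebf2), against 4 and 0 without those KO mice, with Idi1 and Msmo1, enzymes of the pathway, up by 0.15 and 0.21. The median was 0.133, 0.04 and 0.002 in WT, HET and KO mice, and the same tests against the WT difference passed for 0 of the 25 genes. Of 28 interferon response genes 2 rose and 0 fell, but all 28 had a difference above 0, against 12366 of the 23695 genes tested. The median of that list was 0.092 (0.018, 0.161 and 0.166 in WT, HET and KO mice), and 15, 28 and 23 of its genes lay above 0 there.

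Within each genotype, with a common estimate of the spread, 626 genes (2.64%) passed between cohorts in WT mice, of which 266 (1.12%) were higher and 360 (1.52%) lower in cohort 2. In HET mice 69 (0.291%) passed, 20 higher (0.0844%) and 49 lower (0.207%), and in KO mice 1221 (5.15%), 448 higher (1.89%) and 773 lower (3.26%). The direction was mostly shared. Of the 626 genes called in WT mice, 96% had the same sign in HET mice and 89.8% in KO mice, and of the 1221 called in KO mice, 86.6% had the same sign in WT and 92.8% in HET mice. Among all genes tested the share of equal signs was 62.9% to 66.6%. These groups have no mouse in common but share the sex and RNA integrity terms of 1 model. In separate fits of 10 mice, the 338 genes called in WT mice had the same sign in 90.2% of cases in HET and 91.1% in KO mice, against 61.3% and 63% of all genes tested. The fit of the 10 KO mice called 4 genes, of which 50% had the same sign in WT and 75% in HET mice, and that of the 10 HET mice called 0. The counts themselves were unstable. Without the WT mouse with replicate number 9 of cohort 2, 3 genes passed in WT mice, and leaving out any 1 mouse gave 4 to 163 genes in HET and 357 to 1913 in KO mice. In a common model of the sexes, females gave 834 genes (3.52%), 289 higher (1.22%) and 545 lower (2.3%). Males gave 1949 (8.23%), 768 higher (3.24%) and 1181 lower (4.98%), and the test of the difference between the sexes passed for 0 genes (0%; 1034 at an unadjusted p under 0.05 by limma).

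The joint test of genotype and cohort, over both differences from WT, passed for 0 genes (0%) at an adjusted p of 0.05 by limma, with 1493 at an unadjusted p under 0.05. The difference between HET and WT alone gave 0 genes (0%; 1072 unadjusted), and that between KO and WT gave 8 genes (0.0338%). In 7 of these (0.0295%) the difference was more positive in KO than in WT mice, and in 1 (0.00422%) more negative. They included Cldn5, the tight junction protein of brain endothelium, Mmp14, a membrane matrix protease, Col4a1, a collagen of the basement membrane, and Vstm4 and Igf2, which are expressed by cells around vessels and in the meninges. Cldn5 was 9.34 ± 0.06 (SD, n = 6) in WT mice of cohort 1 and 9.02 ± 0.14 (SD, n = 4) in those of cohort 2, but 8.54 ± 0.16 (SD, n = 6) and 9.14 ± 0.22 (SD, n = 4) in KO mice. The KO difference exceeded the WT difference by 0.90 ± 0.16 (SE, limma adjusted p = 0.0338). For Mmp14 it exceeded it by 0.90 ± 0.14 (SE) and for Col4a1 by 0.55 ± 0.09 (SE), both with a limma adjusted p of 0.0116, while for Fmo2, a flavin monooxygenase gene, the sign was opposite (-1.44 ± 0.26 (SE), limma adjusted p = 0.0338). HET mice lay between, with cohort differences of 0.01 for Cldn5 and Mmp14 and 0.05 for Col4a1. With plate column in the model or without the KO mice that stood apart, 0 of the 8 passed, with adjusted p from 0.0684 to 0.142 and from 0.0742 to 0.0998, at differences of the same sign. Without the mean-variance trend only Mmp14 and Col4a1 passed (limma adjusted p = 0.028 each, 0.0603 to 0.0979 for the others).

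**Figure D5:**
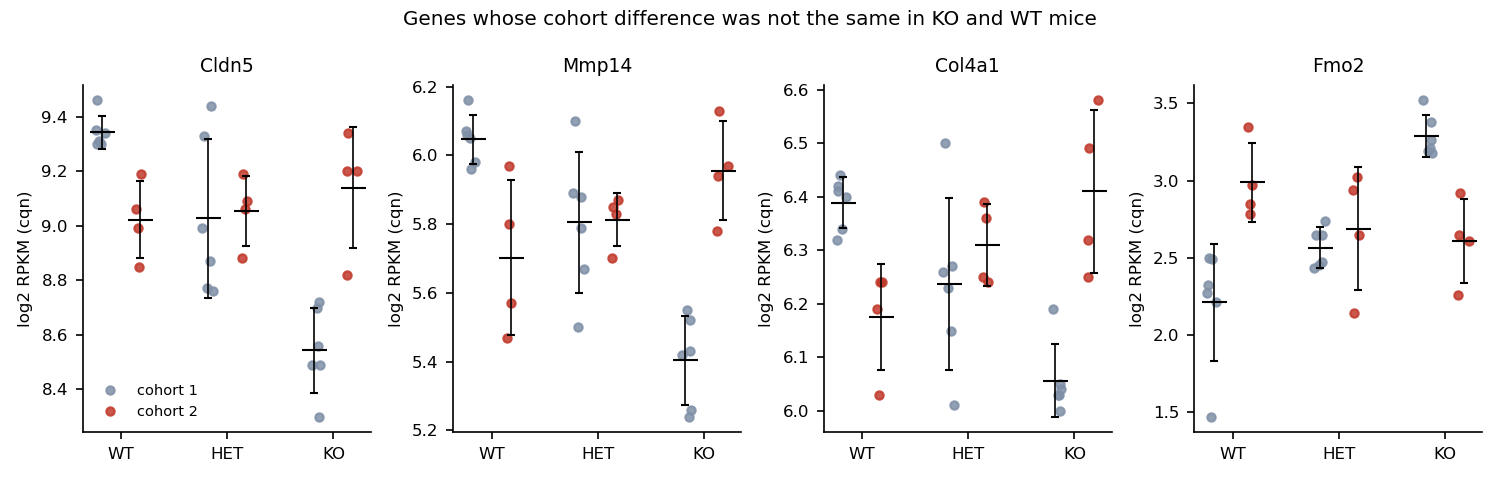
Each point is the log2 RPKM of 1 mouse for 4 of the 8 genes whose cohort difference was called as unequal in KO and WT mice, with the mean and SD in black; the y axes do not start at 0. For Cldn5, Mmp14 and Col4a1 the WT mice of cohort 2 lay lower and the KO mice higher than those of cohort 1, and for Fmo2 the reverse.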

How the data were processed

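RNA from 30 mouse cerebral hemispheres was measured by RNA-seq, with reads aligned to mm10 by TopHat2 2.0.12 and Bowtie 1.1.0 per the submitters' processing notes. The authors deposited 1 table of log2 RPKM values per gene after conditional quantile normalization. No source used here gives the counting tool, the strand setting or the annotation. The table holds no counts, so depth is unknown and no counting interval is given.

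Levels were fitted as deposited, with no pseudocount, by limma 3.58.1 in R 4.3.3 with terms for genotype, cohort, sex and RNA integrity number and a mean-variance trend. The 23695 genes with a mean above 0 were tested, and adjusted p is Benjamini-Hochberg over them, called under 0.05. Differences within genotypes and their contrasts came from 1 model with a term per genotype and cohort, and sexes likewise. The scripts were tested on simulated data. GENCODE M21 gave strand and type, and RefSeq the sequences.

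Members and lists were chosen with earlier results of these data known. Named genes were those with the lowest adjusted p in each direction, called members of the lists, markers, and genes whose KO and WT differences were called as unequal. Kcna2, Gabrb1, Ipo7, Xpo5, Ndufa5, Rps29, Add2, Vps35, Bdnf, Lef1, Rorb, Etv1, Bai3, Frmd4a, Mir132, Mir212, the other members named from families, the gene families, biotypes, length and span bins were chosen after their values were seen. Each sample is 1 mouse, and the replicate numbers, given in sample order within a cohort, pair nothing. Alternatives covered covariates, filters, scalings, plate column and leaving out each mouse. Some members of the lists are counted but not reported here by name.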

Additional observations from a re-analysis of the deposited data

Results flagged for a closer look

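Among 60 groups of genotype and cohort looked at over 10 lists of genes, 2 held a mouse far from the rest, and chance gives about 1 such group in 20. In the KO mice of cohort 2, the mean of the red blood cell genes was 9.04 in the female with replicate number 7, against 6.8 or less in the other mice of that group. In the KO mice of cohort 1, the mean of the glucocorticoid-induced genes was 7.07 in the male with replicate number 4, against 6.57 or less in the others.

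In 8 genes the cohort difference in KO mice was called as unequal to that in WT mice by limma, among 23695 genes tested. The KO minus WT difference was 0.90 for Cldn5 (-0.32 in WT and 0.58 in KO mice), 0.90 for Mmp14 (-0.34 and 0.55), 0.55 for Col4a1 (-0.21 and 0.34) and 0.71 for Igf2 (-0.21 and 0.5). It was 0.77 for Vstm4 (-0.22 and 0.55), 0.49 for Zfp36l1, which encodes an RNA-binding protein that destabilises messages (-0.26 and 0.23), and 0.23 for Tprkb (-0.05 and 0.17). It was -1.44 for Fmo2 (0.78 and -0.66). Over the 15 genes of meningeal and vascular fibroblasts, the median difference was -0.204 (WT), 0.029 (HET) and 0.151 (KO), and 1 of them, Igf2, was called as unequal. Over the 19 choroid plexus genes it was -0.266, 0.105 and 0.252, with 0 called as unequal. How much of these tissues each dissection held was not tested.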

How the results depend on the processing

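No paired analysis was possible because the replicate numbers were given in sample order and pair no mice across cohorts. Of 255 named genes called between cohorts, 168 kept their call in the 11 alternatives and 30 refits that left out 1 mouse each, 87 lost it in at least 1, and 0 reversed. The count of 4150 genes was 100 in females alone, 1429 in males alone and 2585 without the KO mice that stood apart, and fits that left out 1 mouse gave 2904 (without the KO male with replicate number 1 of cohort 2) to 4444. Within WT mice, 626 became 89 with plate column, 373 with no filter, 362 with no trend and 338 in the 10 WT mice alone, and 3 to 852 when 1 mouse was left out. Those that moved it by over 1.5 times were replicates 11, 14 and 15 of cohort 1 (328, 361 and 98) and 3, 8 and 9 of cohort 2 (245, 226 and 3). Within HET mice, 69 became 17 with plate column, 17 with no filter, 19 with no trend and 0 in the 10 HET mice alone, and 4 to 163 when 1 mouse was left out. Within KO mice, 1221 became 4 in the 10 KO mice alone and 221 without the KO mice that stood apart, and 357 to 1913 when 1 mouse was left out. For KO these were replicates 3, 4, 6 and 12 of cohort 1 (733, 669, 559 and 1913) and 1, 5 and 7 of cohort 2 (451, 357 and 649). For HET they were replicates 5, 7, 8, 9, 17 and 18 of cohort 1 (32, 24, 4, 13, 18 and 12) and 2, 4, 8, 10, 11 and 12 of cohort 2 (6, 21, 13, 8, 4 and 163). The joint test of genotype and cohort gave 2 genes without the RNA integrity term, 1 with genotype and cohort only, 1 with no filter and 2 with a mean above 3, and 0 to 7 when 1 mouse was left out; that of sex and cohort gave 0 to 1. Of the 8 genes unequal between KO and WT, Mmp14 and Col4a1 lost their call in 2 of the 30 refits each, Zfp36l1 in 10, Cldn5 and Fmo2 in 13, Tprkb in 14 and Igf2 and Vstm4 in 15. The cause was not tested. Median centring moved the median of each family described by at most 0.001. Quantile normalization did the same, except for kinesins (from -0.033 to -0.046) and translation initiation factors (from 0.009 to 0.005). Neither turned the direction of any of these families. The depth of the libraries is unknown, so the precision of genes near the level of 0 could not be set.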
